A study of Mus musculus with 7 samples.

Results

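The histone genes, canonical and variant, were examined in oocytes that lack Mfn1, the gene for mitofusin 1, a protein of the outer mitochondrial membrane that fuses mitochondria. Members were chosen by symbol alone: names beginning with Hist1h to Hist4h, H2af, H3f3 or H1f, and Cenpa. This gave 79 of the 22877 genes of the table. Of these, 61 were Hist genes, 15 were replacement core variants, a class that here holds the H2af and H3f3 names and Cenpa, and 3 were the linker genes H1foo, H1f0 and H1fx. In GENCODE M21 (build GRCm38), 71 of the 79 were protein-coding and 8 were not: the pseudogenes Hist1h2al, Hist1h2aj, Hist3h2bb-ps, H3f3c, H3f3a-ps1, H3f3a-ps2 and H2afy3, and the antisense RNA H3f3aos.

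RNA was sequenced from oocytes enclosed in secondary follicles, the growing follicles whose oocyte is wrapped in more than 1 layer of granulosa cells. The mice were 8 weeks old, and the labels give the strain as C57BL/6J. The knockout (Mfn1-/-, labelled KO) was made with floxed Mfn1 and a Cre driven by the promoter of Zp3, a gene of the oocyte's coat, so the deletion is made in the oocyte, and WT mice were the control. Each library was made from 5 pooled oocytes that had been freed from their follicles with collagenase and Accutase, and the labels list 4 WT and 3 KO libraries. For each gene the table used here gives 1 mean of normalized counts per genotype, so every value below is the authors' mean, the spread between libraries and their depth are unknown, and no difference was tested.

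A nucleosome is a core of the histones H2A, H2B, H3 and H4 with DNA wrapped around it, and the linker histone H1 binds where the DNA enters and leaves. The Hist genes lie in clusters, have few introns, and are classically transcribed when DNA is replicated. Their mRNAs normally end just after a short stem-loop that takes the place of a poly(A) tail. Replacement variants such as H3.3 and H2A.Z are made outside replication mostly from genes with introns, and their mRNAs have poly(A) tails. Oocytes do not replicate DNA while they grow, but they store histones and histone mRNA for the embryo, and they carry a linker histone of their own, H1foo.

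The stem-loop matters for these values because the cDNA was primed on poly(A). It was found in an annotated transcript of 43 of the 61 Hist genes and of the replacement variant H2afx. Below are the stem-loops of the most abundant Hist genes past 2-fold, of Hist1h1c and of H2afx, with the arms of the stem in capitals and 5 bases kept on each side. They were taken from the transcripts of GENCODE M21 and are followed by their place on GRCm38 and the strand.

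Hist2h2aa1: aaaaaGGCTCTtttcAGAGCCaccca
Hist1h4h: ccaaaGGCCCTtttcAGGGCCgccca
Hist1h2bk: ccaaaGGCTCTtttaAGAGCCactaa
Hist3h2a: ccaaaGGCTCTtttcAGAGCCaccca
Hist1h1c: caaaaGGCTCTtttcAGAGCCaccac
H2afx: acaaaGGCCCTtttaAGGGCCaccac

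These lie in the 3′ untranslated regions at chr3:96246027-96246052 (+ strand) for Hist2h2aa1, chr13:23531453-23531478 (+) for Hist1h4h and chr13:22036295-22036320 (+) for Hist1h2bk. The other 3 lie at chr11:58955167-58955192 (+) for Hist3h2a, chr13:23739507-23739532 (+) for Hist1h1c and chr9:44335235-44335260 (+) for H2afx. The form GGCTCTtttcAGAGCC was found in 25 members, from the H1, H2A, H2B and H3 families, and the form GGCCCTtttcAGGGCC in 7 members, all of them H4 genes. In Hist2h2aa1 the annotated transcript ended 35 bases after the second arm, in Hist1h4h 46 and in Hist1h2bk 30. In Hist1h1c it ran on for 840 bases, in H2afx for 822 and in Hist3h2a for 1643, each with a poly(A) signal in the last 60 bases (AATAAA, or the variant form ATTAAA). Hist1h4h also had such a signal, and Hist2h2aa1 and Hist1h2bk did not.

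Summed over all members, the histone level was 2308 in the KO and 2010 in WT, 1.62% and 1.54% of the whole table. All genes of the table summed to 142576 in the KO and 130160 in WT, a ratio of 1.1. The classes differed. The Hist genes summed to 595 in the KO and 275 in WT, a ratio of 2.16, and went from 0.212% of the table in WT to 0.417% in the KO. The replacement core variants summed to 846 and 598, a ratio of 1.41. The linker H1f genes summed to 867 and 1137, so this class was 1.31 times higher in WT. In pooled cells, fewer cells of a type and less RNA per cell cannot be told apart.

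Single genes were compared by the log2 fold, the log2 of the KO mean over the WT mean after 0.1 was added to each, and counted where the mean over the 7 libraries reached 0.1. Of the members, 65 passed that minimum and 14 did not. Of the 65, 26 (40%) were over 2-fold higher in the KO, 5 were over 2-fold lower and 34 lay within 2-fold. Of the 13827 genes of the table that passed, 7.25% were over 2-fold higher and 4.24% over 2-fold lower. Of the 26 higher members, 25 were Hist genes, and the other was H2afz. All 5 lower members were Hist genes: Hist1h2bh, Hist1h2ae, Hist2h3c1, Hist1h2bg and Hist2h2ab. Of the 26 higher members, 10 had a WT mean under 0.1 and passed the minimum through the KO alone, and of the 5 lower, 3 had a KO mean under 0.1 and passed through WT alone. Such genes had to differ to pass, so the counts made at this minimum, here and for each family or other group below, are a description.

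The same counts were made at higher levels, where counting error is smaller. With a mean of at least 1, 34 members remained, of which 11 were over 2-fold higher and 1 lower, beside 5.44% and 3.24% of 6226 genes. All 8 Hist genes with a mean of at least 10 were higher in the KO, 5 of them over 2-fold. Of 1849 genes of that level, 1317 were higher in the KO at any size. Over 2-fold, 2.97% of them were higher and 2.22% lower. Over 4-fold, 6 members were higher and 0 lower, beside 1.16% and 0.521% of the 13827 genes; of these 6, Hist1h1c alone had a mean of at least 1, and Hist1h3c, Hist1h2ad and Hist1h2bp were at the lowest listed mean in WT. With 1 added in place of 0.1, which shrinks the folds of low genes, 12 members were over 2-fold higher and 0 lower, beside 1.51% and 0.796% of genes. The median log2 fold was 1.00 over the 50 Hist genes that passed, 0.32 over the 12 replacement core variants and 0.52 over the 3 H1f genes, beside 0.11 over all genes that passed and 0.16 over those with a mean of at least 1. The median of the Hist genes was 0.40 with 1 added in place of 0.1, and 0.22 over Hist genes with at least 50% of their 75-base windows in no other gene.

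**Figure D1:**
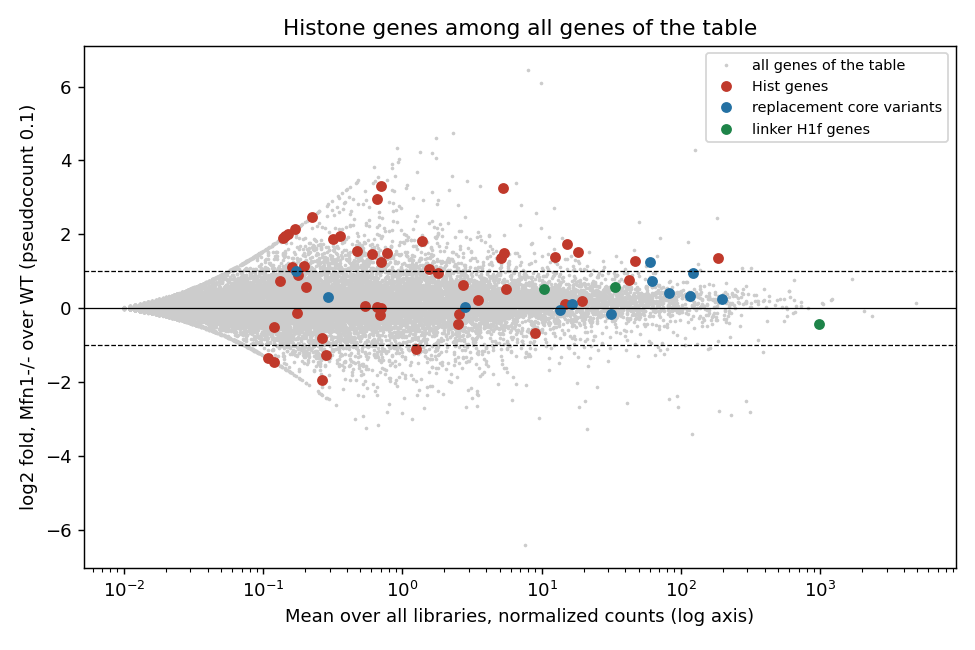
Log2 fold of the KO over WT (vertical axis, 0.1 added to each mean) against the mean over all libraries in normalized counts (horizontal log axis) for all genes of the table in grey and for the 65 histone genes with a mean of at least 0.1 in colour, with dashed lines at 2-fold. At means of 10 or more the 8 Hist genes lie above 0, 5 of them above the upper line, and H1foo lies below 0 at the far right.

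H1foo was the most abundant histone gene of both genotypes. It encodes the oocyte linker histone, which is replaced by somatic H1 after fertilization, and lies at chr6:115944938-115950236 (+ strand). Its level was 813 in the KO and 1100 in WT, a log2 fold of −0.44, so WT was 1.35 times higher. Among all genes whose mean was 1 or more, 10.8% had a lower log2 fold. H1foo made up 0.845% of the table in WT and 0.57% in the KO, and 95.7% and 91.8% of the summed H1 level. None of its 75-base windows, the length of a read, was found in another annotated gene.

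The other linker genes were higher in the KO. H1f0, the H1.0 variant known from resting and differentiated cells, was at 41.4 in the KO and 28.1 in WT (log2 fold 0.56). H1fx, the H1.10 variant, was at 12.6 and 8.75 (0.52). H1foo thus stood at 39.1 times the level of H1f0 in WT and 19.6 times in the KO. Transcript levels of different genes are set side by side here because the values behave roughly as if divided by transcript length, as described with the processing. In that check genes of 300 to 600 bases stayed higher than longer ones. Hist2h2aa1 (586 bases), Hist1h4h (470) and Hist1h2bk (476) are of that length, so shares that set them beside longer genes are rough.

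The somatic H1 genes of the Hist1 cluster went both ways. Hist1h1c, which encodes H1.2, was at 11 in the KO and 1.07 in WT, a ratio of 10.3 and a log2 fold of 3.25. Among all genes whose mean was 1 or more, 99.8% had a lower log2 fold. Its transcript is mostly its own, with 93.3% of its 75-base windows in no other gene. Hist1h1a, which encodes H1.1, was at 6.72 in the KO and 10.8 in WT (−0.68) and shared no 75-base stretch with another gene. Hist1h1e was at 0.696 and 0.7, and Hist1h1d at 0.16 and 0.186. Hist1h1b, the H1.5 gene, was at the lowest listed mean of 0.01 in the KO and at 0.079 in WT. Hist1h1c was thus the only H1 gene past 2-fold among the 7 that passed the minimum. Of all genes that passed, 7.25% were over 2-fold higher and 4.24% lower.

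**Figure D2:**
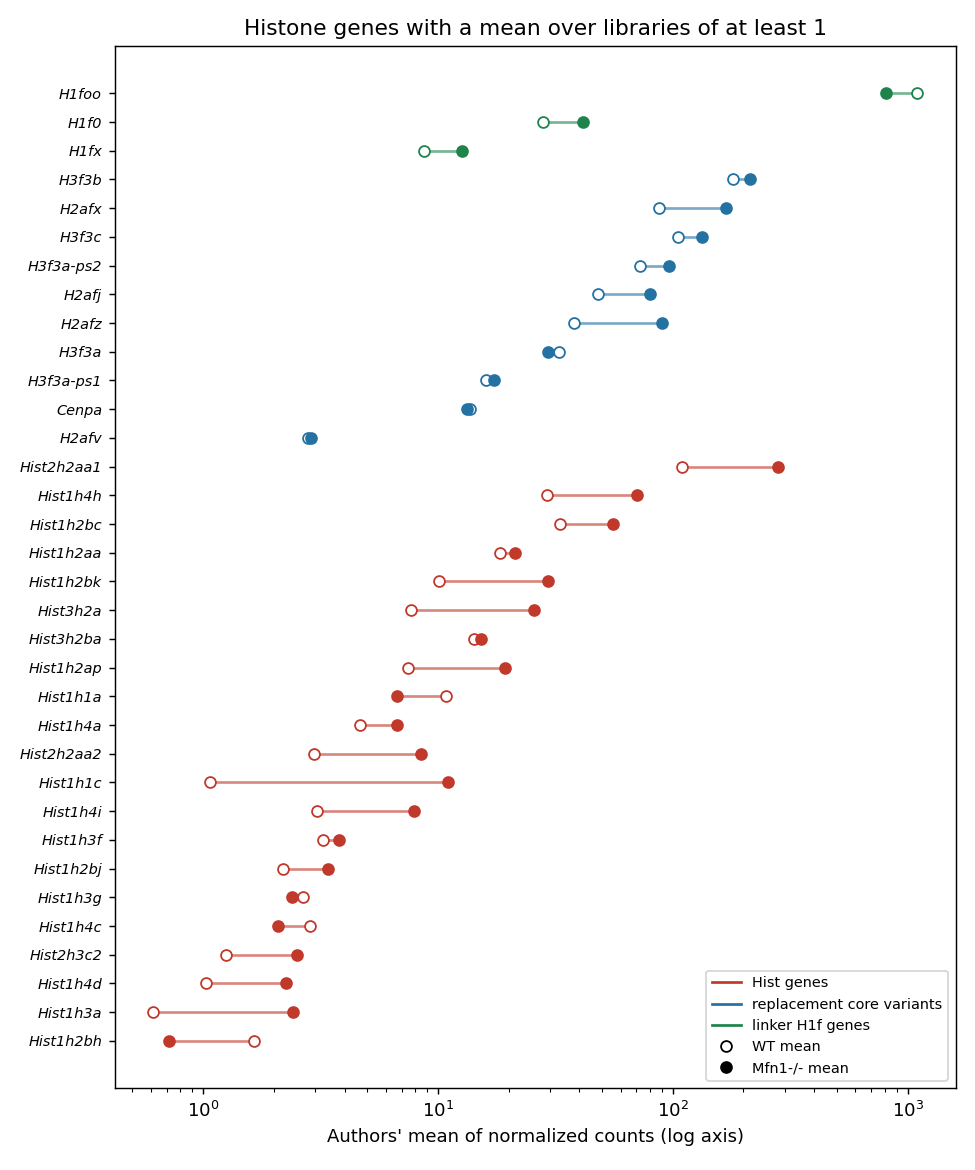
Authors' mean of normalized counts (log axis) in WT (open points) and the KO (filled points) for the 34 histone genes with a mean over all libraries of at least 1, grouped as linker H1f genes, replacement core variants and Hist genes. H1foo lies at the right with its KO point to the left of its WT point, and the widest gap is that of Hist1h1c, from 1.07 to 11.

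Among the replacement variants of H2A, H2afz was the 1 member past 2-fold. It encodes H2A.Z.1, a variant found around start sites of transcription, and was at 89.9 in the KO and 38.1 in WT (log2 fold 1.24). Only 38.3% of its 75-base windows were found in no other gene, so its reads could be divided among near copies. H2afx encodes H2A.X, the variant that is phosphorylated at DNA breaks, and was at 169 and 87.5 (0.95), just inside 2-fold. H2afj, which encodes H2A.J, was at 80.2 and 48 (0.74). These 3 genes were the most abundant H2A variants, and each was higher in the KO.

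The remaining H2A variants were low or level. H2afv encodes H2A.Z.2, a near twin of H2A.Z.1, and was at 2.87 in the KO and 2.79 in WT, so the level of H2afz over H2afv was 31.3 in the KO and 13.7 in WT. H2afy, the gene for macroH2A1, was at 0.343 and 0.258, and H2afy2, for macroH2A2, at 0.0641 and 0.0944. H2afb1, which encodes a short H2A known from testis, was at 0.28 and 0.0906 (log2 fold 1.00, just under the threshold). The pseudogene H2afy3 was at the lowest listed mean of 0.01 in the KO and at 0.0765 in WT. In sum the H2A replacement variants were at 343 in the KO and 177 in WT, a ratio of 1.94.

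The replacement variants of H3 had log2 folds between −0.16 and 0.41. H3.3, the H3 that is deposited outside replication, is encoded by H3f3a and H3f3b. H3f3b was at 214 in the KO and 181 in WT (log2 fold 0.24) and H3f3a at 29.3 and 32.8 (−0.16). By these values H3f3b stood at 7.3 times the level of H3f3a in the KO and 5.52 times in WT. However, 72.1% of the 75-base windows of H3f3a were in no other gene, beside 95.7% for H3f3b. H3f3a shared stretches with 29 other genes, so its reads could be divided among near copies. Its level, its direction and its ratio to H3f3b are therefore uncertain. Cenpa, the H3 of centromeres, was at 13.3 and 13.7 (−0.04). The H3.3 pseudogenes H3f3c (133 and 105), H3f3a-ps2 (96 and 72.3) and H3f3a-ps1 (17.4 and 16) shared 75-base stretches with 17 to 26 other genes, so their values may hold reads of other genes. H3f3aos, antisense to H3f3a, was at 0.0294 and 0.0271; the library kit does not mark strand, so its reads cannot be told apart from those of H3f3a where the 2 genes overlap. Of the 7 members of this group 0 were past 2-fold, where 2.97% of all genes with a mean of at least 10 were higher and 2.22% lower, and their sum was 503 in the KO and 421 in WT, a ratio of 1.2.

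The H2A genes of the Hist clusters held the largest part of the Hist sum. They were at 362 in the KO and 149 in WT, a ratio of 2.43. Of the 14 with a mean of at least 0.1, 8 were over 2-fold higher and 2 lower, beside 7.25% and 4.24% of all genes. Hist2h2aa1, at chr3:96245497-96246082 (+ strand), was the most abundant of all Hist genes, at 282 and 110 (log2 fold 1.36). Its twin Hist2h2aa2, which lies near it on the other strand, was at 8.51 and 2.97 (1.49). None of the 75-base windows of either gene was its own, so how their reads were divided is unknown. Hist2h2aa1 by itself made up 40% of the H2A level in the KO and 33.8% in WT.

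Of the other H2A genes, Hist3h2a was at 25.6 in the KO and 7.67 in WT (1.73), and 69.4% of its windows were its own. It overlaps Trim17 on the same strand in GENCODE M21. Hist1h2ap was at 19.3 and 7.43 (1.37), with 7.35% of windows its own. Hist1h2aa, the H2A gene known as TH2A from testis and oocyte, was at 21.2 and 18.4 (0.20), so this germ-line form was near level. At low levels, Hist1h2ag was at 1.41 and 0.0937, Hist1h2ah at 1.01 and 0.303, and Hist1h2ad at 0.382 in the KO and at the lowest listed mean in WT. The pseudogene Hist1h2al was at 0.614 and 0.0935. Those past 2-fold in the other direction were Hist1h2ae, at 0.111 in the KO and 0.414 in WT, and Hist2h2ab, at the lowest listed mean in the KO and 0.183 in WT.

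The H2B genes summed to 109 in the KO and 63.4 in WT, a ratio of 1.71. Hist1h2bc was the most abundant, at 55.7 and 33.1 (log2 fold 0.75), and made up 51.3% of H2B in the KO and 52.2% in WT. Hist1h2bk was at 29.4 and 10.1 (1.53), and its share of H2B was 27.1% in the KO and 15.9% in WT. Hist3h2ba was at 15.2 and 14.2 (0.10), Hist1h2bj at 3.41 and 2.19 (0.62) and Hist1h2ba, the testis form TH2B, at 0.625 and 0.732. As for TH2A, the germ-line form was within 2-fold. Hist1h2bh was the only member with a mean of at least 1 that was over 2-fold lower, at 0.712 in the KO and 1.65 in WT (−1.11).

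Other H2B genes past 2-fold were low. Hist1h2br was at 1.09 in the KO and 0.401 in WT, Hist1h2bf at 0.818 and 0.215, and Hist1h2bl at 0.332 and 0.0945. Hist1h2bp, Hist2h2bb and Hist1h2bb were at 0.34, 0.323 and 0.311 in the KO and each at the lowest listed mean in WT. In the other direction, Hist1h2bg was at the lowest listed mean in the KO and at 0.202 in WT. A fold against the lowest listed mean rests on the 0.1 that was added, and none is given for these genes.

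The replication-dependent H3 genes were a small part of H3, at 2.04% of the family in WT and 2.95% in the KO. They summed to 15.3 in the KO and 8.78 in WT, a ratio of 1.74. Hist1h3f was the most abundant, at 3.8 and 3.24 (log2 fold 0.22), followed by Hist1h3g at 2.38 and 2.66 (−0.15) and Hist2h3c2 at 2.5 and 1.25 (0.95). Hist1h3a was at 2.41 and 0.611 (1.82) and was the only one of these 4 past 2-fold. Below a mean of 1, Hist1h3d was at 1.55 and 0.068 (3.30), the largest log2 fold of any member with 0.1 added (Hist1h3c was larger with 0.01 added and Hist1h1c with 1), Hist1h3e at 1.29 and 0.396 (1.49), Hist2h3b at 0.695 and 0.104 (1.96) and Hist1h3c at 0.511 in the KO and at the lowest listed mean in WT. Hist2h3c1 was the only H3 gene past 2-fold in the other direction, at 0.0392 and 0.435 (−1.94); it and Hist2h3b had no 75-base window of their own.

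The H4 genes summed to 90.7 in the KO and 41.7 in WT, a ratio of 2.18. Hist1h4h, at chr13:23531050-23531519 (+ strand), was at 70.4 and 29.1 (log2 fold 1.27) and made up 77.6% of H4 in the KO and 69.8% in WT. Hist1h4i was at 7.92 and 3.04 (1.35), Hist1h4d at 2.25 and 1.03 (1.06) and Hist1h4a at 6.69 and 4.66 (0.51). Hist1h4c was lower in the KO, at 2.08 and 2.84 (−0.43), and Hist4h4, the 1 Hist4 gene of the table, was at 0.663 and 0.651. Hist2h4, at 0.278 and 0.0738 (1.12), shared no 75-base stretch with another gene. Of the 8 H4 genes with a mean of at least 0.1, 4 were over 2-fold higher and 0 lower. Over all genes that passed this minimum, the shares were 7.25% and 4.24%. Hist2h4, 1 of the 4, passed through the KO alone.

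**Figure D3:**
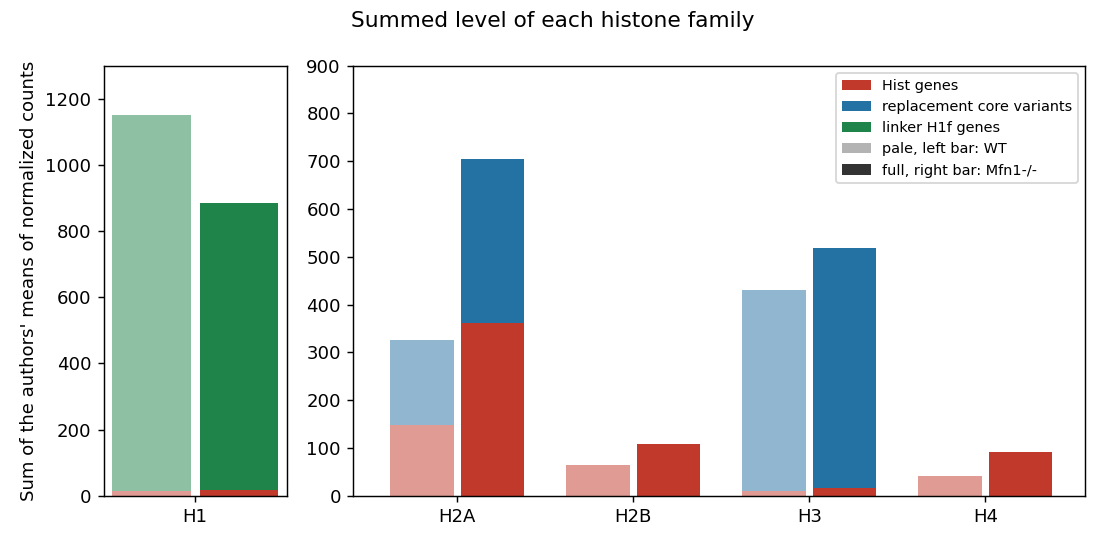
Sum of the authors' means of normalized counts over all members of each histone family (vertical axes from 0, H1 on its own scale), with pale bars for WT and full bars for the KO, divided by class. H2A, H2B, H3 and H4 are higher in the KO, while H1, nearly all of it H1foo, is 886 in the KO and 1150 in WT.

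In the H2A family the Hist genes went from 45.7% of the summed level in WT to 51.3% in the KO, while H3 was made up almost wholly of replacement variants and pseudogenes in both genotypes. When the pseudogenes and the antisense RNA were left out, H3 was at 272 in the KO and 236 in WT, a ratio of 1.15. The core families thus differed in their KO to WT ratio, from 1.21 for H3 to 2.18 for H4. These sums compare RNA alone, and each is led by 1 or a few genes.

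The sums of the Hist1, Hist2 and Hist3 clusters were alike in direction. The 48 Hist1 genes, all on chromosome 13, summed to 259 in the KO and 137 in WT, a ratio of 1.88. The 9 Hist2 genes of chromosome 3 summed to 295 and 115 (2.56), nearly all of it Hist2h2aa1, and the 3 Hist3 genes of chromosome 11 to 41 and 22.2 (1.84). In Hist3, Hist3h2a was higher (log2 fold 1.73), Hist3h2ba near level (0.10) and the pseudogene Hist3h2bb-ps lower (−0.81). Hist4h4 was level, with a ratio of 1.02. Along Hist1, genes that were higher and lower in the KO lay among each other. The pair Hist1h2ae and Hist1h2bg, both lower, lay directly beside Hist1h2bf, Hist1h2ad and Hist1h3d, all higher.

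**Figure D4:**
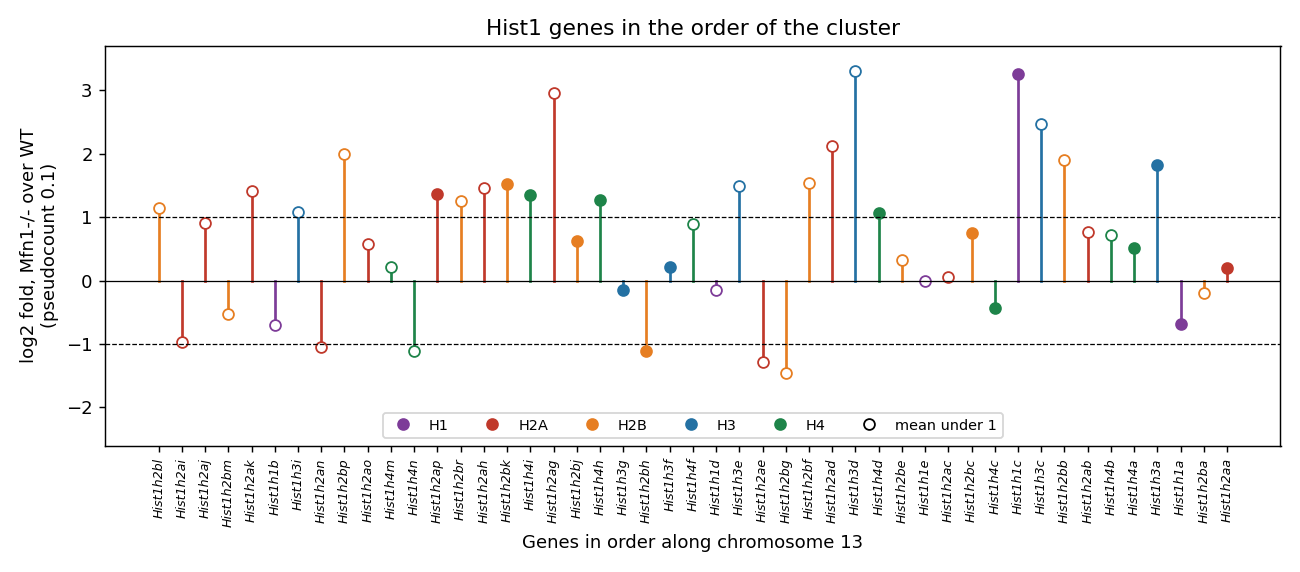
Log2 fold of the KO over WT (vertical axis, 0.1 added to each mean) for the Hist1 genes in their order along chromosome 13, coloured by histone family, with open points for genes with a mean under 1 and dashed lines at 2-fold. The pseudogene Hist1h2al, which lies far from the others, is not drawn; Hist1h1c and Hist1h3d reach the highest values, 3.25 and 3.30.

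Many H2A and H2B genes stand head to head and share the DNA between their start sites. In GENCODE M21, 14 such pairs of members or of a member and another Hist gene lay at most 500 bases apart, and both genes were analysed here for 11. In 6 of the 11 pairs both genes differed in the same direction and in 5 in opposite directions. Where both genes had a mean of at least 0.1, these were 6 and 2 of 8 pairs. The pairs in the same direction that hold Hist1h2ag, Hist1h2ad or Hist1h2bg include a gene that passed through 1 genotype alone. As 49 of the 65 members that passed were higher in the KO, unpaired members would often share a direction too. Whether paired genes differ together was not tested. Hist1h2ah and Hist1h2bk, with 301 bases between their starts, had log2 folds of 1.46 and 1.53, and Hist1h2ap and Hist1h2br, with 235 bases, 1.37 and 1.25. Hist3h2a was at a log2 fold of 1.73, while the pseudogene Hist3h2bb-ps that starts 172 bases from it was at −0.81.

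Because such pairs share 1 promoter region, and because Hist2h2aa1 and Hist1h1c had the highest level of the Hist genes and the largest ratio among those with a mean of at least 1, the 250 bases before their RefSeq starts are given, with that of H1foo, which went the other way. Capitals mark the box CCAAT, the box TATAAA, and the octamer ATTTGCAT, searched on either strand. No match overlaps another here.

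Hist2h2aa1: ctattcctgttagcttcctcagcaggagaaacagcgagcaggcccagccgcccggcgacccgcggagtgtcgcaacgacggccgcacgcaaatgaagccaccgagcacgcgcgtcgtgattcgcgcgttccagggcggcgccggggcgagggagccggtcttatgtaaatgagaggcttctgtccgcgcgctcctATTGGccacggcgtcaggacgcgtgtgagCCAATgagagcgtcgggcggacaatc
Hist1h1c: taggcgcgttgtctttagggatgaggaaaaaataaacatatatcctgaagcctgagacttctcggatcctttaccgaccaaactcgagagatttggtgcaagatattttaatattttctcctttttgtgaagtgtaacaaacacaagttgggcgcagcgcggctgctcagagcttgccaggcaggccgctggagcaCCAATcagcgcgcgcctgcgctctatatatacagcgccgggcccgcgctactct
Hist1h2bk: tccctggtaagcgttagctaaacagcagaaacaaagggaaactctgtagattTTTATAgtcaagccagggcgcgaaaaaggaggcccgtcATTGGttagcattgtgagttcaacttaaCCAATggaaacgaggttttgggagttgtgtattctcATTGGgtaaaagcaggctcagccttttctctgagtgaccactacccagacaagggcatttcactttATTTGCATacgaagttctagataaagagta
H1foo: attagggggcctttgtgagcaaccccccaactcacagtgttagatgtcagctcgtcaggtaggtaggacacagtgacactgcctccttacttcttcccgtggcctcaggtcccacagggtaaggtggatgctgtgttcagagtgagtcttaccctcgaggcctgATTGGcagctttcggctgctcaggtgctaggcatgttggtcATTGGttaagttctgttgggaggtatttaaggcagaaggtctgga

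In the RefSeq table of build GRCm38.p6 these are chr3:96245247-96245496, chr13:23738557-23738806, chr13:22035571-22035820 and chr6:115944681-115944930, all on the + strand. The Hist1h2bk stretch lies between the GENCODE M21 starts of Hist1h2ah and Hist1h2bk and holds 3 CCAAT boxes, 1 TATAAA box and 1 octamer, the last 30 bases before the start. Hist2h2aa1 and H1foo each held 2 CCAAT boxes, and Hist1h1c held 1, which begins 54 bases before the start.

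Of the 79 members, 64 matched 1 promoter of 300 bases (250 before and 50 after the start). CCAAT was found in 86.5% of the 52 Hist promoters and in 37.4% of all 32851 promoters, TATAAA in 57.7% and 13.6%, and the octamer in 25% and 1.74%. A match counted anywhere in the 300 bases and on either strand, so these are not shares of boxes at a set position. Hist2h2aa1 counted as holding TATAAA, though the 250 bases given above hold none. The octamer was found in 7 of 16 H2A and 6 of 13 H2B promoters and in none of the 5 H1, 8 H3 or 10 H4 promoters of Hist genes. Among Hist genes that passed the minimum mean, the 21 that were over 2-fold higher in the KO held CCAAT in 90.5%, TATAAA in 47.6% and the octamer in 23.8%, and the 22 others in 90.9%, 54.5% and 31.8%.

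Hist genes were also divided by their annotated 3′ end. The 22 whose transcript ended within 100 bases of the stem-loop summed to 423 in the KO and 166 in WT, a ratio of 2.54; of the 18 with a mean of at least 0.1, 12 were over 2-fold higher and 0 lower. The 21 whose transcript ran further summed to 83.2 and 44.3 (1.88), with 7 of 20 over 2-fold higher and 4 lower. The 18 with no stem-loop in any annotated transcript summed to 88.9 and 64.9 (1.37), with 6 of 12 over 2-fold higher and 1 lower. This group holds pseudogenes and short models, such as Hist1h2bl and Hist2h2bb at 381 bases. Its lack of a stem-loop can therefore lie in the annotation. These counts include genes that passed the minimum through 1 genotype alone, such as Hist1h2ag, Hist1h3c and Hist1h2ad of the first group. With a mean of at least 1, 6 of 8, 4 of 10 and 0 of 3 were over 2-fold higher, and 0, 1 and 0 lower. Over all genes of that level, 5.44% were over 2-fold higher and 3.24% lower. Hist2h2aa1, Hist1h4h, Hist1h2bk and Hist1h2ap, the 4 genes of the first group with a mean of at least 10, had log2 folds of 1.27 to 1.53. By the poly(A) signal, the 13 Hist genes with one summed to 139 and 61.7 (2.26) and the 48 without to 455 and 214 (2.13). An annotated end does not show which end the RNA in these oocytes had, and whether the share of Hist RNA with a poly(A) tail differed between the genotypes was not tested.

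The folds were also set beside shared sequence. Of the 61 Hist genes, 58 shared a stretch of 75 bases with another annotated gene, and Hist1h1a, Hist1h1b and Hist2h4 did not. Both strands were searched, so a gene annotated over the same place counted as sharing. Gm44344, the only gene to share a stretch with Hist1h2aa, overlaps it on the other strand. The sets below thus mix near copies with overlapping genes. The 35 Hist genes with at least 50% of their windows in no other gene summed to 241 in the KO and 138 in WT, a ratio of 1.74, and had a median log2 fold of 0.22 over the 31 with a mean of at least 0.1, of which 12 were over 2-fold higher and 3 lower. The 26 with fewer such windows summed to 353 and 137 (2.58), with a median of 1.37 over 19, of which 13 were over 2-fold higher and 2 lower. Here too some genes passed the minimum through 1 genotype alone. With a mean of at least 1, 6 of 15 in the first set were over 2-fold higher and 1 lower. In the second set these were 4 and 0 of 6, beside 5.44% and 3.24% of all genes of that level. How the authors counted reads that map to more than 1 gene is not given in the sources used here, and the part of shared reads in these values was not tested.

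**Figure D5:**
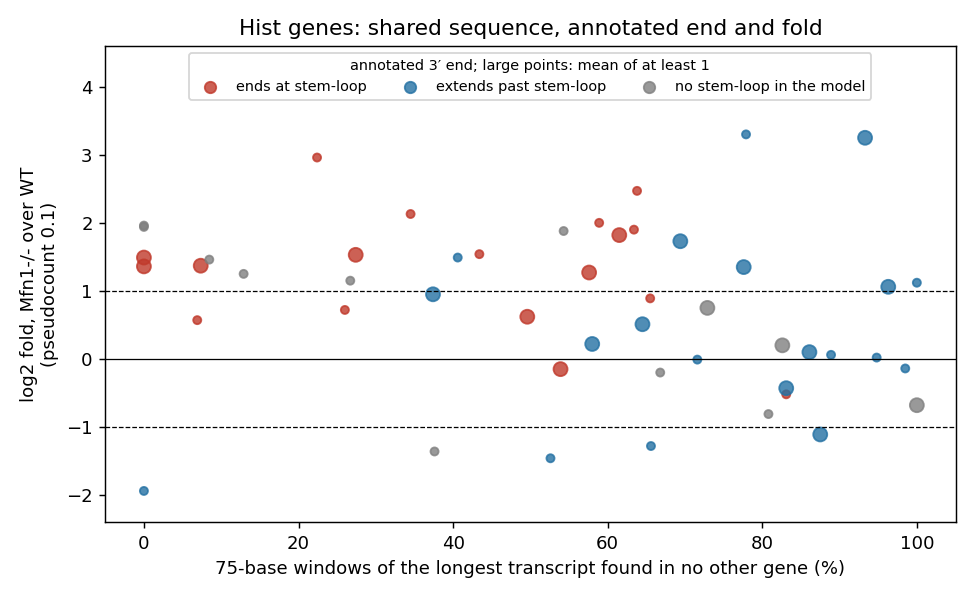
Log2 fold of the KO over WT (vertical axis, 0.1 added to each mean) against the percent of 75-base windows of the longest transcript that are in no other gene, for the 50 Hist genes with a mean of at least 0.1, coloured by annotated 3′ end and large where the mean is at least 1. Hist1h1c lies at the upper right with 93.3% of windows its own, and Hist2h2aa1 and Hist2h2aa2 lie at 0% with log2 folds of 1.36 and 1.49.

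Genes that make, process and carry histone RNA and protein were counted with the same 0.1 added. Of the 17 genes for transcription and 3′ end processing of histone mRNA, 0 were past 2-fold, and their median log2 fold was 0.00. Over all genes that passed the minimum, 7.25% were past 2-fold higher and 4.24% lower, but some genes of these lists lay below that minimum. Whether the counts of the lists fall short of those shares was not tested. Coil, a protein of Cajal bodies, was at 0.867 in the KO and 0.391 in WT, a ratio of 2.22 that lay inside 2-fold (0.98) with 0.1 added. Slbp, whose protein binds the stem-loop, was at 106 in both genotypes, and Lsm10, of the small RNP that trims the 3′ end, at 243 in the KO and 223 in WT. Of 32 genes for histone chaperones and deposition factors, 0 were past 2-fold (median 0.00). Npm3, of the nucleoplasmin family, was at 0.955 and 0.438, a ratio of 2.18 and a log2 fold of 0.97. Others of this list were Npm2, the egg nucleoplasmin, at 83.8 and 80.1, and Nasp at 7.92 and 7.91. Of 19 genes of S phase and proliferation, 1 was past 2-fold: Ccne1, the gene for cyclin E1, at 3.61 and 1.66 (1.08). Pcna, the sliding clamp of replication, was at 20.5 and 19.8, and Mki67 at 2.1 and 3.25.

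Mfn1 itself was at 0.0577 in the KO and 0.616 in WT (log2 fold −2.18). The 10 oocyte markers summed to 3233 in the KO and 2815 in WT with none past 2-fold. Of all genes that passed the minimum mean, 7.25% were over 2-fold higher and 4.24% lower. Of the 14 granulosa markers, 12 were analysed here and summed to 2.39 and 1.76, most of it Inha at 1.87 and 0.954. Amh was at 0.0349 and 0.02. The sum is led by Inha: of the 12 markers, 4 were higher in the KO and 8 lower, with a median log2 fold of −0.02. Among the lower ones, Cyp19a1 was at 0.0846 in the KO and 0.193 in WT. The 5 markers of theca and stroma analysed here summed to 0.162 and 0.174. Of the 3 markers of blood and endothelium analysed here, Cd68, a lysosomal protein of macrophages, was at 7.58 in the KO and 0.672 in WT (3.31), while Pecam1 was at 0.168 and 0.188 and Kdr at 0.0121 and 0.0169. The part of Cd68-expressing cells in the histone values was not tested.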

How the data were processed

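RNA of mouse oocytes enclosed in secondary follicles was sequenced from 4 WT and 3 KO libraries of 5 oocytes each, as the labels list them, while the paper's methods speak of fewer samples. Poly(A) RNA was amplified with Smart-Seq2 and made into Nextera XT libraries with 75-base paired reads. Adapters were removed with Cutadapt and poor reads with the FASTX-Toolkit, STAR aligned the rest to GRCm38/mm10, and the authors compared the genotypes with DESeq2 by the paper's methods; the submitters' processing notes name DESeq and FastQC, and versions are not given in the sources used here. The signal in the deposited table is the authors' mean of normalized counts per genotype, with a sum over libraries. In 100% of genes that sum came within 1% of what 3 KO and 4 WT libraries at these means would give, so 7 libraries entered. The lowest listed mean is 0.01. The table also holds the authors' ratio, fold change, p-value and false discovery rate of their comparison, which were not used. The scale of normalization is not named. Among genes at the lowest mean in the KO and under 1 in WT, the median excess of the WT mean over 0.01 fell with transcript length. It was 0.097 in genes of 300 to 600 bases and 0.00655 in those of 2500 to 5000. Times length in kb it was 0.0485 at 300 to 600 bases, 0.0267 at 600 to 1200 and 0.0226 at 2500 to 5000. Values thus behave roughly as if divided by length, with the shortest genes still higher.

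The log2 fold was computed with a pseudocount of 0.1, a minimum mean of 0.1 and a 2-fold threshold. The planned tests need values of single libraries, so no test was made, and depth and replicate spread are unknown. Transcripts, gene types and overlaps came from GENCODE M21, and promoters from RefSeq by symbol or synonym. The 75-base windows were those of the longest transcript of each gene. They were searched on both strands in all annotated transcripts, those of overlapping genes included. Stem-loops and poly(A) signals were searched in every annotated transcript of a gene, and the stem-loop with the most bases after it was kept. The code was tested on simulated data. Python 3.11.15, numpy 2.4.6, pandas 2.3.3 and matplotlib 3.10.9 were used. The number of columns of single samples not used was 0.

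The members and lists were chosen with earlier results of these data known. Genes named were Mfn1, members with a mean of at least 1, members with a mean of at least 0.1 past 2-fold, all replacement variants and H1f genes, and from the lists and markers those with a mean of at least 1 past 2-fold. Other members and list genes were named after their values were seen. Alternatives were pseudocounts of 0.01 and 1, no minimum mean or 1, thresholds of 1.5-fold and 4-fold, centring on the median gene, and leaving out the most abundant member or Hist genes with shared sequence. Alternatives chosen after seeing the data were protein-coding members alone, leaving out members at the lowest listed mean, and leaving out Hist genes with under 50% of windows of their own.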

Additional observations from a re-analysis of the deposited data

How the results depend on the processing

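Of 50 alternative values, 35 kept their direction and moved by at most 1.5 times for counts and ratios, or by at most the log2 of 1.5 for log2 values, 14 moved by more and 1 reversed. The counts of members over 2-fold higher and lower, 26 and 5, became 12 and 0 with a pseudocount of 1, 11 and 1 with a minimum mean of 1, 6 and 0 at a 4-fold threshold, 2 and 0 without Hist genes that share a 75-base stretch, and 13 and 3 without those under 50% unique; 3 were lower without members at the lowest listed mean. The median log2 fold of Hist genes, 1.00, became 0.40 with a pseudocount of 1, which shrinks low genes, and 0.22 without Hist genes that share a stretch or without those under 50% unique. Without all Hist genes that share a stretch, the ratio of summed Hist means, 2.16, reversed to 0.64; that set holds 3 genes and is led by Hist1h1a. Without Hist2h2aa1 the ratio was 1.89. Subtracting 0.16, the median log2 fold of genes with a mean of at least 1, changed the sign of 3 of 34 members, H3f3a-ps1, Hist3h2ba and H2afv, and left 23 members higher and 5 lower; H1foo went to −0.60 and the median of the replacement core variants from 0.32 to 0.16.

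No paired analysis was possible because the table gives 1 mean per genotype, and for the same reason no replicate was left out. Depth per library is unknown, so the counting error of low members, such as those at the lowest listed mean, cannot be given.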
